A study of Phaseolus vulgaris with 6 samples.

Results

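Genes annotated for starch metabolism and for the response to gravity were followed in the stem tips of common bean (Phaseolus vulgaris) plants, comparing the mutant nts with the wild type A18. The set held 43 of the 27012 genes in the table. A gene was taken if its description contained starch, amylase, ADP-glucose, ADP glucose pyrophosphorylase, phosphoglucomutase, glucan phosphorylase, gravitrop or isoamylase, and left out if it also contained inhibitor or scarecrow. RNA was sequenced from 3 nts samples and 3 A18 samples, taken at first flowering, once the tips of nts stems clearly differed from those of A18. The labels name neither the gene affected in nts nor any other allele, and both genotypes were raised under the same conditions. No label states that replicates were different plants, and p-values therefore cover only the spread between these samples, which may be technical.

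Starch is built in plastids. Phosphoglucomutase and ADP-glucose pyrophosphorylase make ADP-glucose, starch synthases add its glucose to growing chains, branching enzymes create branch points, and isoamylase-type debranching enzymes trim them. Beta-amylases, some alpha-amylases, debranching enzymes and phosphorylases take the granule apart again. In shoots, starch-filled plastids of the starch sheath, the innermost cortical layer, sink within their cells when a stem is tilted, and this sedimentation is the first step of shoot gravity sensing. In Arabidopsis, mutants without starch or without a working starch sheath bend weakly or not at all.

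The label of the set holds for most of its genes but not for all. Of the 43 genes, 27 carry the KEGG pathway of starch and sucrose metabolism and 26 a GO term naming chloroplast, plastid or amyloplast. The exception is a family of 8 genes described as plant glycogenin-like starch initiation proteins. None of the 8 has that pathway or a plastid term, all 8 have a Golgi term, and 5 have a term naming xylan, which 0 of the 35 other genes have. Arabidopsis proteins 1 and 3 of this family, also known as GUX1 and GUX2, add glucuronic acid side chains to xylan, a polymer of secondary walls. The name of these genes therefore does not describe their annotated role, and they are given as a group of their own. Both genes described as ADP-glucose pyrophosphorylase family protein carry the enzyme code of a GDP-mannose pyrophosphorylase. The gene described as Alpha amylase family protein and isoamylase 1 both carry that of a branching enzyme. These codes do not settle what a gene is, since some do not match the description. An auxin efflux carrier family protein (Phvul.003G032500), for example, carries the code of a thioredoxin reductase. Of the gravity genes, 1 of 3 has a GO term for gravity detection or gravitropism. The genes lie on all 11 chromosomes, 9 of them on chromosome 2.

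The 6 libraries held between 40728394 and 62695701 counts. On the first principal component, with 54.8% of the variance, nts replicates 1 and 2 stood at 122 and 102 and nts replicate 3 at 40.3, whereas A18 replicates 1 and 3 stood at -112 and -116 and A18 replicate 2 at -36.1. For the largest differences and some of those that rest on nts replicate 3 or A18 replicate 2, values without these libraries are given as well. Because these libraries lie between the genotypes, leaving them out tends to widen differences by construction. The starch sheath could not be checked by its defining regulators. No description names SHORT-ROOT, SCARECROW without the ending -like, or a Casparian strip protein. The first 2 are GRAS genes, and 30 genes are described as GRAS family transcription factor, so they may be present without being named. The marker list of the starch sheath came down to 39 genes of a membrane protein family (UPF0497) to which the Casparian strip proteins belong. In whole stem tips, fewer cells of a type and less RNA per cell cannot be told apart.

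The study's design text calls a gene changed from a log2 change of 2 in either direction with an unadjusted p of 0.05 or less. By that rule 3 of these genes were lower and 1 was higher in nts. Glycogenin-like proteins 1 and 3 were 14.2-fold and 7.85-fold lower in mean FPKM (fragments per kilobase of transcript and per unit of sequencing depth). A gene of the gravitropism-deficient and yellow-green family, EGY-like 3, was 7.46-fold lower. Beta-amylase 5 was 4.35-fold higher. Most genes differed little, with 25 of the 41 tested under 0.5 in size on the log2 scale (61.0%, against 57.9% of all tested genes).

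The threshold counts stand against a background of 3.37% of 21126 tested genes lower and 2.06% higher, where the set had 7.32% and 2.44% of 41. At an adjusted p under 0.05 (edgeR quasi-likelihood test, Benjamini-Hochberg over all tested genes) 0 of 41 were called, with a background of 0.0947%, and the lowest adjusted p was 0.0866. At an unadjusted p under 0.05, 10 were lower in nts (24.4%, background 9.58%) and 3 higher (7.32%, background 8.39%). DESeq2 called 7 at an adjusted p under 0.05 (17.1%, background 10.5%). The genotypes did not overlap in FPKM for 14 genes (34.1%, background 24.3%), 12 of them with nts below A18 (29.3%, background 14.3%) and 2 above (4.88%, background 10.0%). Without the glycogenin-like group this was 9 of 34 genes (26.5%), 8 with nts below (23.5%) and 1 above (2.94%), and 20.6% were lower in nts at an unadjusted p under 0.05. The median log2 change of the 41 genes was -0.21, against 0.00 for all tested genes, and -0.05 without the glycogenin-like group. The 2 untested genes, starch synthase 3 (Phvul.003G078800) and glycogenin-like protein 1 (Phvul.002G270800), had 0 counts in all 6 libraries.

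**Figure D1:**
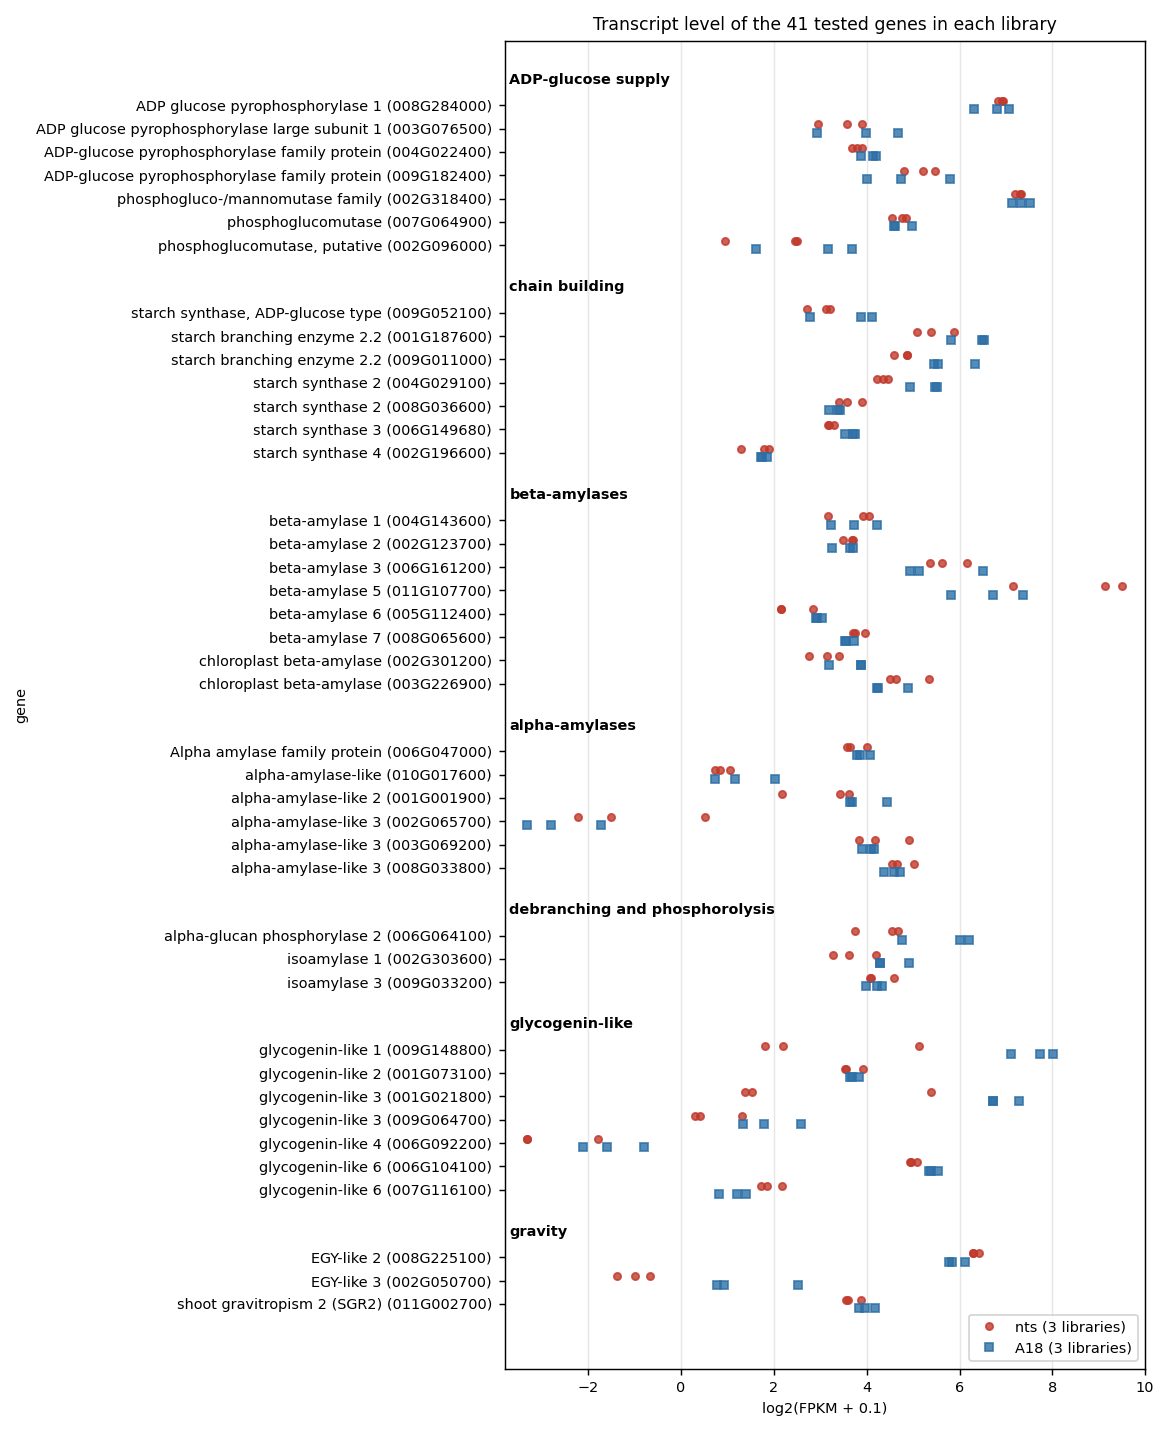
Level of each of the 41 tested genes in every library, as log2(FPKM + 0.1), grouped by role, with nts as circles above A18 as squares. The genotypes lie far apart for glycogenin-like proteins 1 (Phvul.009G148800) and 3 (Phvul.001G021800) and for EGY-like 3, and overlap for all genes of ADP-glucose supply.

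The first step of the pathway showed no difference past a threshold in either direction. All 7 genes of ADP-glucose supply were tested, 0 had an unadjusted p under 0.05 (edgeR) and their median log2 change was 0.01. The pair with a GDP-mannose pyrophosphorylase code (Phvul.004G022400 and Phvul.009G182400) had log2 changes of -0.21 and 0.26, and the median of the 5 others was also 0.01. ADP glucose pyrophosphorylase 1 (Phvul.008G284000, chromosome 8, 62409851 to 62412807), named like the small subunit of the enzyme in Arabidopsis, had 114, 121 and 122 FPKM in nts replicates 1, 2 and 3, against 133, 79.5 and 112 FPKM in A18 replicates 1, 2 and 3. The nts libraries lie within the range of the A18 libraries. The log2 change was 0.23 ± 0.22 (edgeR, adjusted p = 0.618, n = 3).

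Large subunit 1 of the same enzyme (Phvul.003G076500) was far less abundant, with 7.60, 11.8 and 14.9 FPKM in nts and 25.5, 7.54 and 15.7 FPKM in A18. A18 replicate 2 was the lowest of the 6 libraries. The log2 change was -0.391 with all libraries and -0.985 without A18 replicate 2 and nts replicate 3. This gene overlaps a gene on the opposite strand (Phvul.003G076400) by 990 bases, so where counting ignored strand their reads cannot be told apart.

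The most abundant gene of this step was a phosphoglucomutase/phosphomannomutase family protein (Phvul.002G318400, chromosome 2, 48449498 to 48456256), of the enzymes that convert glucose 6-phosphate and glucose 1-phosphate. It had 146, 159 and 161 FPKM in nts and 161, 184 and 141 FPKM in A18, a log2 change of 0.01 ± 0.24. The gene described as phosphoglucomutase alone (Phvul.007G064900) averaged 26.3 ± 2.65 FPKM in nts and 26.5 ± 4.16 FPKM in A18 (SD, n = 3). Both carry the GO term for detection of gravity, and neither separated the genotypes. The putative phosphoglucomutase (Phvul.002G096000) was low and uneven, with 1.83, 5.51 and 5.40 FPKM in nts and 12.8, 2.98 and 8.90 FPKM in A18. Its log2 change was -0.838 with all libraries and -1.477 without A18 replicate 2 and nts replicate 3.

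Of the 7 tested genes that build and branch the chains, 6 had a negative log2 change, among them starch synthase 4 at only -0.02. Over all tested genes, 10524 of 21126 had a negative change. An unadjusted p under 0.05 on the lower side was found for 4 of the 7 (57.1%, background 9.58%), and 3 did not overlap between the genotypes (42.9%, background 24.3%). None passed the adjusted threshold or the study's thresholds, and their median log2 change was -0.57. Starch synthase 2 (Phvul.004G029100, chromosome 4, 3458349 to 3466147), which extends the intermediate chains of amylopectin, had 18.6, 22.0 and 20.2 FPKM in nts, against 45.9, 30.4 and 44.2 FPKM in A18. Every nts library was below every A18 library. The log2 change was -0.90 ± 0.18, with the lowest adjusted p of the set (0.0866, edgeR, n = 3). The adjusted p was 0.000354 with DESeq2, and 0.0390 in edgeR without A18 replicate 2, a fit in which 4.38% of all tested genes passed.

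The other starch synthase 2 gene (Phvul.008G036600) had 14.8, 11.9 and 10.5 FPKM in nts and 8.96, 10.3 and 10.6 FPKM in A18, with overlapping genotypes. The first copy therefore made up 62.0% of the summed level in nts and 80.1% in A18. How reads were split between such copies is not stated, so their separate levels are uncertain.

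Both genes of starch branching enzyme 2.2, which forms branch points in amylopectin, had lower means in nts. Phvul.009G011000 (chromosome 9, 1877138 to 1884053) had 23.9, 29.2 and 29.3 FPKM in nts and 46.5, 81.1 and 43.8 FPKM in A18, without overlap (edgeR log2 change -1.01 ± 0.34, adjusted p = 0.193, n = 3). A18 replicate 2 was far above the other libraries, and without it the log2 change was -0.55 (edgeR adjusted p = 0.144). Phvul.001G187600 (chromosome 1, 44665147 to 44687683) had 42.0, 59.1 and 33.8 FPKM in nts and 89.0, 56.6 and 92.8 FPKM in A18, and here nts replicate 2 lay above A18 replicate 2. Together the copies summed to 72.4 FPKM in nts and 137 FPKM in A18.

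The synthase described as ADP-glucose type (Phvul.009G052100) had 6.46, 8.67 and 9.11 FPKM in nts and 17.3, 6.73 and 14.7 FPKM in A18, so that A18 replicate 2 stood among the nts libraries. Starch synthase 3 (Phvul.006G149680) had 8.94, 9.69 and 9.0 FPKM in nts and 13.3, 11.4 and 12.9 FPKM in A18, a small difference without overlap (log2 change -0.36 ± 0.14). Starch synthase 4 (Phvul.002G196600), which initiates granules in Arabidopsis, averaged 3.12 ± 0.670 FPKM in nts and 3.33 ± 0.174 FPKM in A18 (SD, n = 3). Summed over the group, the libraries held 118, 144 and 114 FPKM in nts and 224, 200 and 222 FPKM in A18. Photosystem and light-harvesting genes, 96 markers of green tissue of which 6 had 0 counts throughout, summed to between 36347 and 41237 FPKM in nts. In A18 they summed to between 21392 and 37439 FPKM. Of the 88 tested, 31 lay above A18 without overlap (35.2%, background 10.0%) and 2 below (2.27%, background 14.3%). At an unadjusted p under 0.05 (edgeR), 29 were higher in nts (33.0%, background 8.39%) and 1 lower (1.14%, background 9.58%). The part of green tissue in the starch levels was not tested.

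Among the beta-amylases, which release maltose from chain ends, beta-amylase 5 stood out. Phvul.011G107700 (chromosome 11, 12400335 to 12402890) had 558, 726 and 142 FPKM in nts, against 165, 56.6 and 106 FPKM in A18. It had the highest mean of the whole set in nts, whereas in A18 glycogenin-like proteins 1 and 3 and the phosphoglucomutase/phosphomannomutase family protein were higher. nts replicates 1 and 2 were far above all A18 libraries, while nts replicate 3 lay between A18 replicates 1 and 3, so the genotypes overlap. It averaged 475 ± 301 FPKM in nts and 109 ± 54.4 FPKM in A18 (SD, n = 3), a log2 change of 2.21 ± 0.65 (edgeR, unadjusted p = 0.0124, adjusted p = 0.159, n = 3). In Arabidopsis this isoform is found outside the chloroplast and in the phloem, although the table gives the bean gene a chloroplast term as well as an extracellular one.

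The call at the study's thresholds was lost without A18 replicate 2, where the log2 change was 1.97, without nts replicate 2, where it was 1.83, and with limma on log2(FPKM + 1), where it was 1.94. Without nts replicate 3 the change was 2.64 (edgeR adjusted p = 0.0417, where 4.45% of all tested genes passed). Without both nts replicate 3 and A18 replicate 2 it was 2.34 (edgeR adjusted p = 0.0129, where 19.9% passed). Phloem markers, 19 genes of which 0 were at zero counts throughout, summed to between 870 and 997 FPKM in nts. In A18 they summed to between 808 and 1208 FPKM, so that the nts range lay inside the A18 range. Taken singly, 4 were lower at an unadjusted p under 0.05 (edgeR, 21.1%, background 9.58%) and 0 higher (background 8.39%). Without overlap, 6 lay below A18 (31.6%, background 14.3%) and 2 above (10.5%, background 10.0%). The part of phloem in the level of beta-amylase 5 was not tested.

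Beta-amylase 5 took 78.8%, 86.6% and 48.9% of all beta-amylase FPKM in nts replicates 1, 2 and 3, and 56.7%, 25.4% and 50.4% in A18 replicates 1, 2 and 3. The 7 other beta-amylases summed to 150, 113 and 148 FPKM in nts and to 126, 166 and 104 FPKM in A18, with no separation. None of those 7 had an unadjusted p under 0.05. Beta-amylase 3 (Phvul.006G161200) came next in abundance, with 71.8, 41.3 and 49.5 FPKM in nts and 34.7, 91.1 and 30.6 FPKM in A18, where A18 replicate 2 was the highest of the 6 libraries.

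Both chloroplast beta-amylase genes, of the type that drives leaf starch breakdown at night in Arabidopsis, had opposite signs. Phvul.003G226900 had 22.6, 24.8 and 40.5 FPKM in nts and 29.6, 18.8 and 18.6 FPKM in A18. Phvul.002G301200 had 6.61, 8.71 and 10.5 FPKM in nts and 14.6, 8.96 and 14.7 FPKM in A18. Neither separated the genotypes. Beta-amylase 6 (Phvul.005G112400) was the only gene of the group without overlap, at 4.32, 4.36 and 7.02 FPKM in nts and 8.15, 7.52 and 7.39 FPKM in A18, with a log2 change of -0.47 ± 0.27. Beta-amylases 1, 2 and 7 had log2 changes of 0.04, 0.17 and 0.29.

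The alpha-amylases, which cut within the chains, gave no gene with an unadjusted p under 0.05 among 6 tested. The plastid-type alpha-amylase-like 3 was the main form, carried by Phvul.008G033800 with 25.0, 32.3 and 23.2 FPKM in nts and 24.0, 20.5 and 26.1 FPKM in A18, and by Phvul.003G069200 with 18.1, 14.2 and 29.8 FPKM in nts and 14.9, 17.8 and 17.0 FPKM in A18. A further copy (Phvul.002G065700) had the largest positive fitted change of the set, 2.87 ± 1.53, and did not pass the thresholds (edgeR unadjusted p = 0.106). It rests on few counts, with 48, 21 and 198 in nts and 39, 0 and 8 in A18, and the change was 0.65 without nts replicate 3 and A18 replicate 2. Alpha-amylase-like 2 (Phvul.001G001900) had 4.40, 12.2 and 10.6 FPKM in nts and 21.7, 12.3 and 12.8 FPKM in A18, a separation that rests on a narrow gap between nts replicate 2 and A18 replicate 2.

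Phosphorolysis and debranching were covered by 3 genes. Alpha-glucan phosphorylase 2 (Phvul.006G064100, chromosome 6, 17413882 to 17421042), of the cytosolic type that works on glucans made from exported maltose in Arabidopsis, had 13.4, 25.5 and 23.3 FPKM in nts and 64.5, 27.0 and 73.6 FPKM in A18. A18 replicates 1 and 3 were far above the rest, and A18 replicate 2 exceeded nts replicate 2 by a small margin. The log2 change was -1.30 ± 0.40 (edgeR adjusted p = 0.173, n = 3). Without A18 replicate 2 and nts replicate 3 it was -1.74 (edgeR adjusted p = 0.0283), in a fit where 19.9% of all tested genes passed. DESeq2 gave an adjusted p of 0.0283 with all libraries.

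Isoamylase 1 (Phvul.002G303600), by name the enzyme that trims branches while amylopectin is made but with a branching enzyme's code in the table, had 12.2, 18.2 and 9.51 FPKM in nts and 19.4, 19.5 and 30.2 FPKM in A18 (edgeR log2 change -0.72 ± 0.29, unadjusted p = 0.0447, adjusted p = 0.266). Isoamylase 3 (Phvul.009G033200), which acts in starch breakdown, had 16.6, 23.8 and 16.9 FPKM in nts and 20.0, 15.7 and 18.5 FPKM in A18 and did not separate the genotypes.

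**Figure D2:**
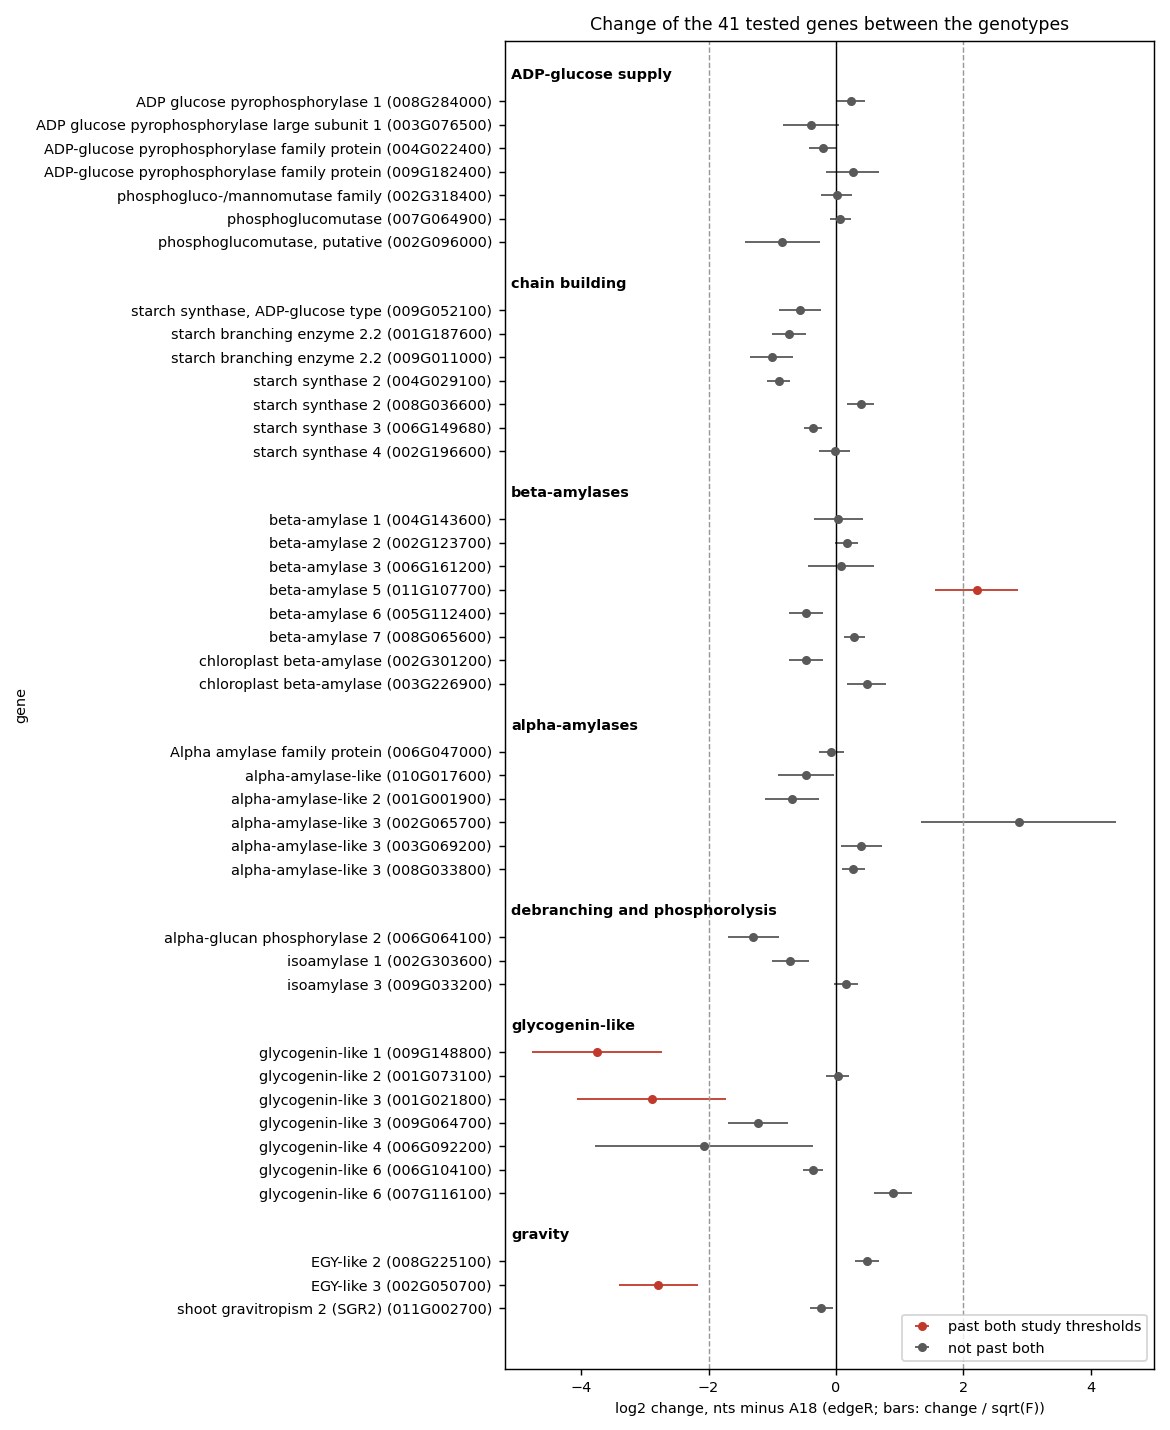
Log2 change of the 41 tested genes, nts minus A18, with bars for its error as derived from the F statistic and dashed lines at -2 and 2. Glycogenin-like 1 (-3.75), glycogenin-like 3 (-2.89) and EGY-like 3 (-2.79) lie past the lower line and beta-amylase 5 (2.21) past the upper one with an unadjusted p of at most 0.05, whereas alpha-amylase-like 3 (2.87) and glycogenin-like 4 (-2.07) lie past a line without reaching that p.

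The largest differences were in the glycogenin-like group. Of its 7 tested genes 5 had a negative log2 change (10524 of 21126 over all tested genes). At the study's thresholds 2 of the 7 were lower (28.6%, background 3.37%). The genotypes did not overlap for 5 of the 7 (71.4%, background 24.3%), and the median log2 change was -1.23. Glycogenin-like starch initiation protein 1 (Phvul.009G148800, chromosome 9, 22227582 to 22233190) had 3.42, 4.45 and 35.0 FPKM in nts, against 139, 257 and 213 FPKM in A18. nts replicate 3 was several times as high as the other nts libraries but well below every A18 library. The log2 change was -3.75 ± 1.02 (edgeR, unadjusted p = 0.00905, adjusted p = 0.144, n = 3).

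Glycogenin-like starch initiation protein 3 (Phvul.001G021800, chromosome 1, 1783206 to 1787330) had 2.78, 2.48 and 41.5 FPKM in nts, against 106, 156 and 105 FPKM in A18. The order of the libraries was nearly that of protein 1, with nts replicate 3 highest in nts and A18 replicate 2 highest in A18. The log2 change was -2.89 ± 1.17 (edgeR, unadjusted p = 0.0457, adjusted p = 0.267, n = 3). Without nts replicate 3 the changes were -5.65 for protein 1 and -5.50 for protein 3 (edgeR adjusted p = 0.0184 and 0.0172). In that fit 4.45% of all tested genes passed. For protein 3, the unadjusted p no longer met 0.05 when A18 replicate 1, 2 or 3 or nts replicate 1 or 2 was left out, with log2 changes between -3.02 and -2.37. Protein 1 stayed past the study's thresholds without each library in turn.

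Together these genes made up 11.7%, 11.3% and 61.4% of the group's FPKM in nts replicates 1, 2 and 3, and 80.1%, 87.6% and 82.5% in A18 replicates 1, 2 and 3. The 6 other glycogenin-like genes summed to 46.9, 54.6 and 48.1 FPKM in nts and to 60.9, 58.6 and 67.5 FPKM in A18, without overlap. Markers of the fibre and xylem wall (53 genes, such as laccases, cellulose synthase A4 and FASCICLIN-like proteins 11 and 12) summed to 1170, 517 and 2706 FPKM in nts replicates 1, 2 and 3, and to 10455, 7704 and 10112 FPKM in A18 replicates 1, 2 and 3. Here too nts replicate 3 was the highest nts library. In A18 the order differed: replicate 2 was the lowest library for the markers but the highest for proteins 1 (257 FPKM) and 3 (156 FPKM). Of the 53 markers, 4 had 0 counts in all 6 libraries and 12 had 0 counts in all nts libraries. At the same thresholds, 29 of the 45 tested markers were lower (64.4%, background 3.37%) and 1 was higher (2.22%, background 2.06%). The marker list was chosen with earlier results of these data known, so these shares are no independent measure of fibre and xylem cells. The part of fibre and xylem cells in the levels of proteins 1 and 3 was not tested.

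The rest of the group differed less. The other protein 3 gene (Phvul.009G064700) had 1.22, 2.39 and 1.13 FPKM in nts and 2.41, 3.36 and 5.88 FPKM in A18, with nts replicate 2 just under A18 replicate 1 (edgeR log2 change -1.23 ± 0.47, unadjusted p = 0.0380, adjusted p = 0.246). Protein 2 (Phvul.001G073100) averaged 12.7 ± 2.01 FPKM in nts and 13.1 ± 0.944 FPKM in A18 (SD, n = 3). Protein 4 (Phvul.006G092200) had 0, 0 and 17 counts in nts and 54, 19 and 14 counts in A18.

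Both protein 6 genes separated the genotypes, in opposite directions. Arabidopsis protein 6 is known to glucuronidate a sphingolipid rather than xylan. Phvul.006G104100 had 30.7, 33.9 and 30.6 FPKM in nts and 41.6, 40.6 and 46.5 FPKM in A18 (log2 change -0.36 ± 0.15). Phvul.007G116100 had 3.51, 3.19 and 4.41 FPKM in nts and 2.19, 1.65 and 2.52 FPKM in A18 (edgeR log2 change 0.90 ± 0.30, unadjusted p = 0.0225, adjusted p = 0.196).

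**Figure D3:**
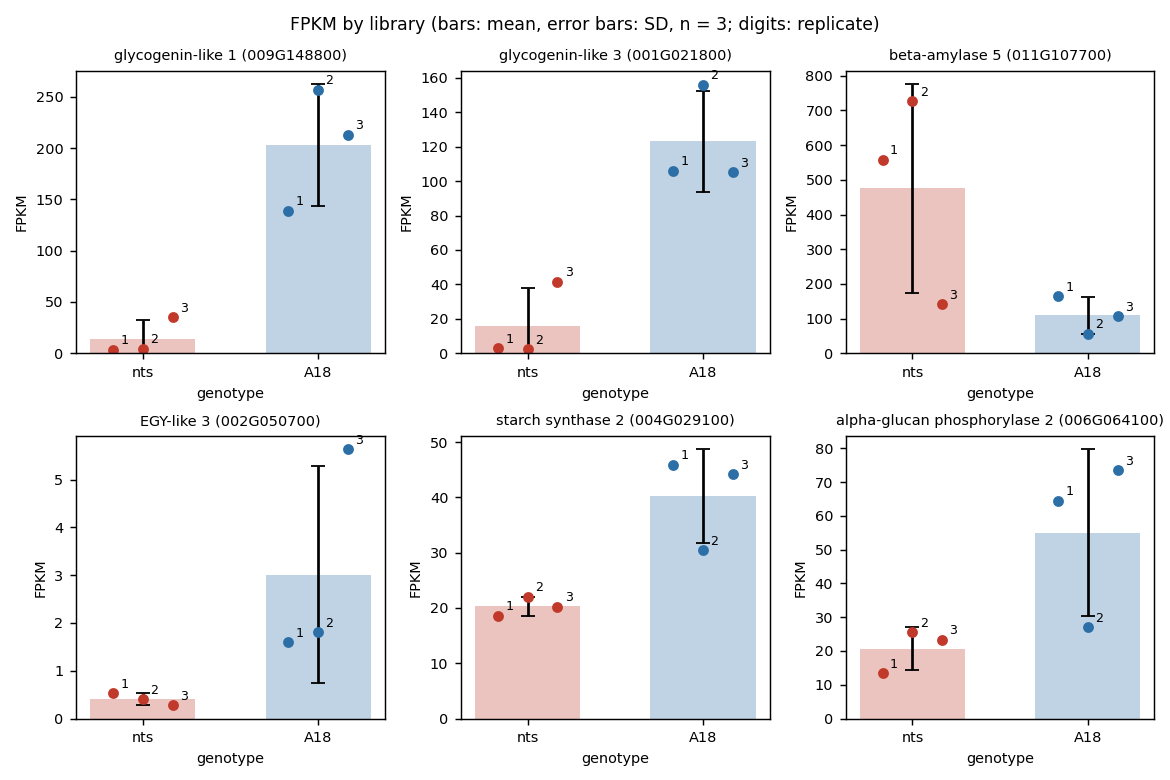
FPKM of 6 genes in each library, nts left of A18, with bars for the mean, error bars for the SD (n = 3) and digits for the replicate. nts replicate 3 lies nearest to A18 for glycogenin-like 1, glycogenin-like 3 and beta-amylase 5, and A18 replicate 2 lies nearest to nts for starch synthase 2 and alpha-glucan phosphorylase 2.

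The gravity genes numbered 3, and each behaved differently. EGY-like 3 (Phvul.002G050700, chromosome 2, 4687984 to 4691632), described as ethylene-dependent gravitropism-deficient and yellow-green-like, belongs to a family of plastid membrane metalloproteases. In Arabidopsis the founding member is needed for chloroplast development and for ethylene-stimulated gravitropism, and the bean gene carries GO terms for heat, high light and hydrogen peroxide. It had 0.53, 0.40 and 0.28 FPKM in nts, against 1.60, 1.81 and 5.63 FPKM in A18, from 63, 46 and 27 counts in nts and 189, 151 and 583 counts in A18. All nts libraries were below all A18 libraries, and A18 replicate 3 was well above the other A18 libraries. The log2 change was -2.79 ± 0.62 (edgeR, unadjusted p = 0.00337, adjusted p = 0.102, n = 3). It was -2.03 without A18 replicate 3 and between -3.10 and -2.03 over all fits that left out 1 library, each past the study's thresholds. With limma on log2(FPKM + 1), a scale that compresses low levels, it was -1.38 and below the threshold in size.

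EGY-like 2 (Phvul.008G225100, chromosome 8, 57490738 to 57496723), a member with a thylakoid membrane term, was the most abundant of the 3. It had 85.6, 78.0 and 78.6 FPKM in nts and 54.9, 56.9 and 69.8 FPKM in A18, with every nts library above every A18 library (edgeR log2 change 0.49 ± 0.19, unadjusted p = 0.0366, adjusted p = 0.242, n = 3). Shoot gravitropism 2 (Phvul.011G002700, chromosome 11, 187945 to 201435) encodes a phospholipase-like protein of the vacuole membrane, needed in Arabidopsis for amyloplasts to sediment in the starch sheath. It had 11.6, 12 and 14.6 FPKM in nts and 17.9, 14.1 and 15.5 FPKM in A18, with nts replicate 3 above A18 replicate 2 (edgeR log2 change -0.23 ± 0.18, adjusted p = 0.543). The 39 UPF0497 genes summed to between 547 and 694 FPKM in nts and between 830 and 904 FPKM in A18. Their 28 tested genes had a median of -0.48 on the log2 scale, in a range of -8.41 to 9.45, and 6 genes were at 0 counts throughout. At an unadjusted p under 0.05 (edgeR), 8 were lower (28.6%, background 9.58%) and 3 higher (10.7%, background 8.39%). Without overlap, 9 lay below A18 (32.1%, background 14.3%) and 3 above (10.7%, background 10.0%). Past the study's thresholds 2 were lower (7.14%, background 3.37%) and 1 higher (3.57%, background 2.06%). The part of these genes in the levels of the gravity genes was not tested.

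Other genes that act with these were taken by description. Plastid sugar transport, glucan and maltose handling, sucrose synthesis and cleavage, hexose phosphorylation and UDP-glucose formation gave 49 genes, 45 of them tested. Of these 0 passed the study's thresholds or the adjusted threshold (edgeR), an unadjusted p under 0.05 was found for 3 on the higher side (6.67%, background 8.39%) and 5 on the lower side (11.1%, background 9.58%), and the median log2 change was -0.07. Sucrose synthase 4 (Phvul.003G127500), which cleaves sucrose to UDP-glucose, the precursor of both cellulose and, through glucose 1-phosphate, starch, had 128, 136 and 325 FPKM in nts and 468, 398 and 713 FPKM in A18 (edgeR log2 change -1.32 ± 0.47, adjusted p = 0.216). The genotypes did not overlap, and nts replicate 3 was again the highest nts library. Without nts replicate 3 the log2 change was -1.93 (edgeR adjusted p = 0.0440, where 4.45% of all tested genes passed). It was -1.08 without A18 replicate 3, -1.07 without nts replicate 1 and -1.09 without nts replicate 2. In these fits the unadjusted p was above 0.05 (edgeR, 0.0872, 0.0927 and 0.0927). A gene related to glucose-6-phosphate/phosphate translocators (Phvul.002G232300) had 493, 448 and 442 FPKM in nts and 425, 260 and 410 FPKM in A18. UDP-glucose pyrophosphorylase 2 (Phvul.008G240600) had 225, 208 and 247 FPKM in nts and 315, 317 and 274 FPKM in A18. All nts libraries were above all A18 libraries for the translocator gene and below them for the pyrophosphorylase, and neither had an unadjusted p under 0.05.

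Gravity partners were auxin carriers, SCARECROW-like and INDETERMINATE-domain regulators, NPH3-type phototropic genes and vesicle v-SNAREs. They came to 102 genes, 83 of them tested, with a median log2 change of -0.08, and 1 gene past the study's thresholds in each direction (1.2%, background 2.06% higher and 3.37% lower). An unadjusted p under 0.05 was found for 8 on the higher side (9.64%, background 8.39%) and 9 on the lower side (10.8%, background 9.58%). Both genes past the thresholds are described as auxin efflux carrier family proteins. Some members of this family move auxin to the lower side of a tilted stem, but the description does not say whether these do. Phvul.003G032500 had 71.3, 39.3 and 77.3 FPKM in nts and 17.5, 20.5 and 10.2 FPKM in A18 (edgeR log2 change 2.03 ± 0.41, unadjusted p = 0.00202, adjusted p = 0.0867). Phvul.002G117700 had 0.144, 0.125 and 1.27 FPKM in nts and 22.0, 6.73 and 10.8 FPKM in A18 (edgeR log2 change -4.54 ± 1.07, unadjusted p = 0.00444, adjusted p = 0.111). The genotypes did not overlap for either gene. Without nts replicate 3 the second gene had a log2 change of -6.45 (edgeR adjusted p = 0.0212, where 4.45% of all tested genes passed). The first was under the threshold in size without A18 replicate 3 (1.77), nts replicate 1 (1.94) or nts replicate 3 (1.83). The most abundant carriers, Phvul.004G150600 and Phvul.002G119300, had log2 changes of -0.91 ± 0.48 and 0.04 ± 0.26 and overlapped, and the most abundant v-SNARE (Phvul.004G031600) had -0.08 ± 0.17.

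A18 replicate 2 was the A18 library nearest to nts for 14 of the 41 genes (34.1%), where it was so for 51.9% of all tested genes. nts replicate 3 was the nts library nearest to A18 for 17 (41.5%), against 50.5%. In the fit without both libraries 8 genes had an adjusted p under 0.05 (edgeR), or 19.5%, where 19.9% of all tested genes did. They were glycogenin-like proteins 1 and 3, starch synthase 2 (Phvul.004G029100), the synthase of ADP-glucose type, branching enzyme 2.2 (Phvul.009G011000), alpha-glucan phosphorylase 2 and chloroplast beta-amylase (Phvul.002G301200) on the lower side, and beta-amylase 5 on the higher side. Leaving these libraries out was chosen from the same data, because they lie between the genotypes, and so widens differences by construction.

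**Figure D4:**
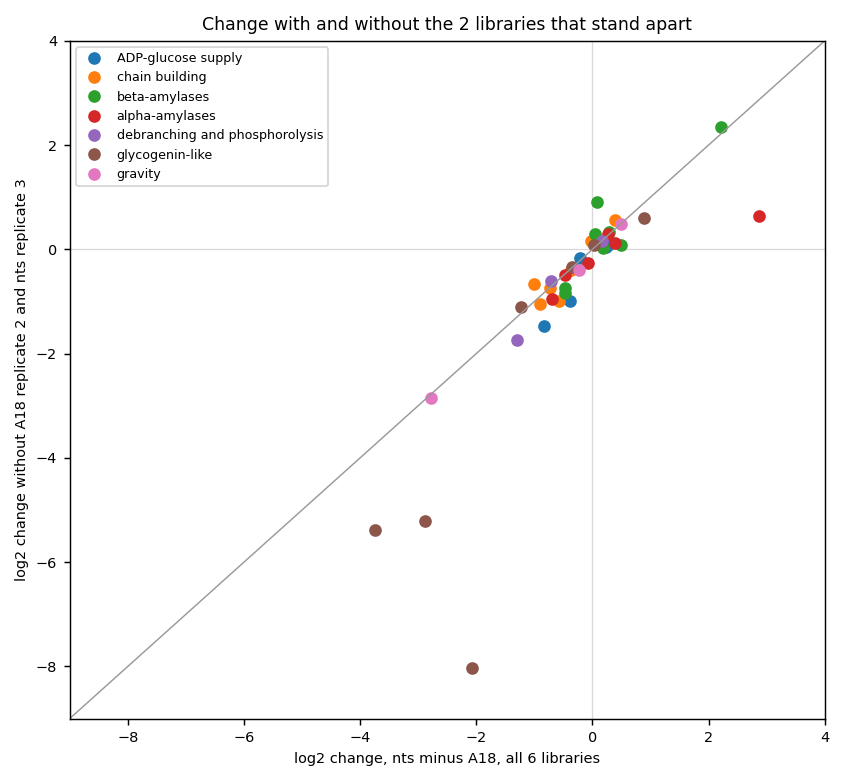
Log2 change of each of the 41 genes, nts minus A18, with all 6 libraries (horizontal axis) and without A18 replicate 2 and nts replicate 3 (vertical axis), coloured by role; the line marks equal values. Glycogenin-like 1 and 3 move down to -5.39 and -5.22, alpha-amylase-like 3 (Phvul.002G065700) falls back to 0.65, and the lowest point is glycogenin-like 4 (Phvul.006G092200), which has 0 counts in both remaining nts libraries, so that its value is no measured fold.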

How the data were processed

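The table holds columns headed count, taken as unnormalized gene counts because they are whole numbers whose totals differ between libraries. Low values were not spread evenly: between 175 and 238 genes of a library had a count of 4, and between 44 and 62 a count of 5. A count may therefore not be 1 sequenced fragment, and the p-values rest on the spread between libraries. Beside them it gives the authors' FPKM, which the design text also names; a gene with 0 counts stands at 0.0001 there, and this was set to 0. The submitters' processing notes name cutadapt 1.9 and FastQC. The aligner, counter, strand setting, genome build and annotation were not given in the sources used here, and coordinates are those of the table. No sequence of these genes was used here.

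Counts were tested with edgeR 4.0.16 (quasi-likelihood F test, robust, TMM, filterByExpr) under R 4.3.3, with no covariate beside genotype, over all 21126 genes that passed the filter. Log2 changes are nts minus A18. The ± beside them is derived from the change and its F value, and so restates the test. Alternatives used DESeq2 1.42.0, limma 3.58.1 on log2(FPKM + pseudocount), other scalings and filters, and fewer libraries. No replicates were near-duplicates: their counts gave a chi-square of 132 to 435 per gene. The spread between replicates, not depth, set the precision, with a common biological coefficient of variation of 0.487.

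The genes, role groups, partner and marker lists were chosen with earlier results of these data known. Matches inside longer words (SAUR-like, phosphofructokinase and other nucleotide transporters) were dropped from the partner lists after the values were seen. With them 149 gravity partners were tested, of which 27 were higher (18.1%, background 2.06%) and 5 lower (3.36%, background 3.37%) at the study's thresholds. For the starch and sucrose partners these counts were 0 and 0 of 62 tested. The synthase of ADP-glucose type was moved from ADP-glucose supply to the chain-building role. Genes named by rule were those past a threshold, the 2 most abundant of each role, all gravity genes, and those without overlap whose log2 change reached 1 in either direction, 16 in all. From the partner lists they were the genes past a threshold and the 3 most abundant. The others named were chosen after their values were seen. Markers of epidermis and cuticle summed to between 499 and 639 FPKM in nts and between 444 and 624 in A18, and seed markers to between 2133 and 2717 in nts and between 2580 and 3184 in A18. At an unadjusted p under 0.05 (edgeR), 6 of the 18 tested epidermis markers were higher (33.3%, background 8.39%) and 2 lower (11.1%, background 9.58%). Of the 68 tested seed markers, 8 were higher (11.8%) and 11 lower (16.2%).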

Additional observations from a re-analysis of the deposited data

How the results depend on the processing

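Scaling by DESeq2 size factors or upper quartiles, and either filter on low counts, left the counts of these genes at 0 by adjusted p, 1 higher and 3 lower. By adjusted p, 7 genes of the set were called with DESeq2, 1 with limma on log2(FPKM + 1) and 8 without A18 replicate 2 and nts replicate 3, and between 0 and 3 when 1 library was left out. By the design text's rule 2 genes of the set were higher with DESeq2 and 0 in each of the 3 limma fits, and between 0 and 1 when 1 library was left out; between 2 and 4 were lower. Of all tested genes, 20 were called by adjusted p. This became 37 without the filter, 2384 with DESeq2, 439 and 418 with limma on log2(FPKM + 1) and log2(FPKM + 0.1), 287 with limma and no filter, 4267 without A18 replicate 2 and nts replicate 3, and between 0 and 964 without 1 library. Past the study's thresholds were 1147 genes, 2477 without those libraries and between 1013 and 1768 without 1 library. The cause of these differences was not tested. With the replicate block 0 genes passed the adjusted threshold, in the set and in the whole table. Same-numbered samples did not deviate together (correlations of -0.0163, -0.13 and 0.0385), so the numbers were not taken as pairs.

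Of 256 values of the 16 named genes under 16 alternatives, 12 lost the study's thresholds and 11 changed sign, all of genes that passed no threshold. The phosphoglucomutase/phosphomannomutase family protein (Phvul.002G318400) had -0.01 with DESeq2 size factors and with DESeq2, -0.05 in the limma fits, and between -0.11 and 0.22 without 1 library. Beta-amylase 3 (Phvul.006G161200) had between -0.21 and 0.91 without 1 library. With 3 libraries a genotype, the spread between replicates and not depth limits these results, except for genes with few counts such as alpha-amylase-like 3 (Phvul.002G065700) and glycogenin-like protein 4.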
